A study of Mus musculus with 15 samples.

Results

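Mammary glands of BALB-neuT mice at the 2 later ages of the series, weeks 19 and 22 (8 arrays), were compared with glands at the 2 earlier ages, weeks 10 and 15 (7 arrays). The stage of an array was set by the age in its source label alone, and all 15 arrays of the series entered 1 contrast of late against early. Of 33012 gene probes on each array, 17506 passed the filter on background and were tested, and 175 genes among them carried a name. The late stage held 4 arrays at week 19 and 4 at week 22, and the early stage held 5 at week 10 and 2 at week 15. Each array was hybridised with total RNA of a gland prepared as a whole mount from 1 animal, per the series design, and the labels give the ages as successive stages of mammary carcinogenesis. No other treatment is given in the labels, every mouse carried the transgene, and glands without it are not analysed here, so stage of carcinogenesis and ordinary ageing cannot be told apart.

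As background, BALB-neuT females express an activated form of the rat Her2 (neu) gene, the orthologue of the human ERBB2 oncogene, under the promoter of mouse mammary tumour virus, which is active in mammary epithelium and responds to hormones. The gland passes through hyperplasia to multiple carcinomas within months. Normal mammary tissue of a virgin mouse is mostly fat, crossed by ducts with an inner luminal layer and an outer basal layer, and milk protein genes are known mainly from the luminal cells of pregnancy and lactation. The whole gland also holds a lymph node, vessels and nerve, and lies under hair-bearing skin. In RNA of whole tissue, fewer cells of a type and less RNA per cell cannot be told apart, which holds for every result here.

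Late and early glands differed over a large part of the array. At a limma adjusted p of 0.05, 5593 probes passed (31.9% of those tested), 2919 of them higher in late glands (16.7%) and 2674 lower (15.3%). The increases were larger than the decreases. A change of at least 2-fold was measured for 1549 probes that rose and 1043 that fell, and a change of at least 4-fold for 491 and 43. The median log2 change was 1.06 among probes that rose and -0.86 among those that fell, while the median of all tested probes was -0.02 with quartiles of -0.40 and 0.35. The 8 late and 7 early values did not overlap for 1371 probes (7.83% of those tested), 970 higher and 401 lower in late glands.

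**Figure D1:**
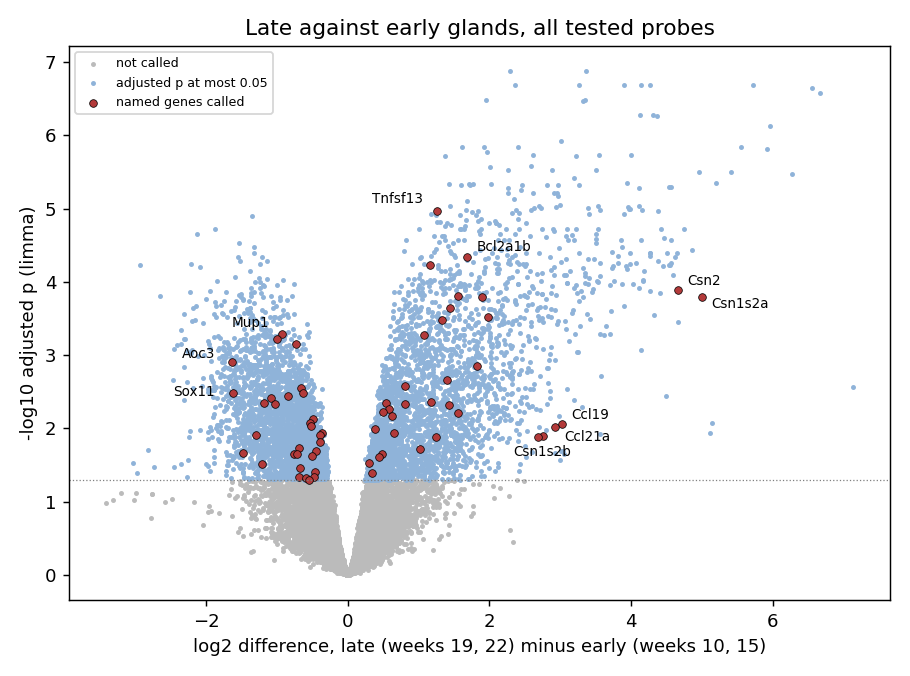
Each point is 1 of 17506 tested probes, with the log2 difference of late minus early glands on the horizontal axis and minus log10 of the limma adjusted p on the vertical axis, and the dotted line marks an adjusted p of 0.05. Probes past 4-fold lie mostly on the right (491 higher against 43 lower), and of the named genes that passed, Csn1s2a and Csn2 lie farthest to the right.

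Precision is limited by the number of arrays. Between 46.1% and 53.9% of the probes of an array were above background, meaning that the signal was at least 3 times its noise. Levels are log2 signals after quantile normalization between arrays, and differences are late minus early on the log2 scale, given with their SE. Stage went in part with scan day, since the first scan day held 5 early and 2 late arrays and the second held 2 early and 6 late. The array serial numbers fall in 4 runs, called array series here, of which series 3 (2 early, 3 late) and series 4 (4 early, 3 late) held several arrays of both stages. In a principal component analysis the first component carried 40.8% of the variance, and all 7 early arrays lay between -89.6 and -32.0 on it while all 8 late arrays lay between 9.52 and 84.1. Week 15 replicate 1 stood apart on the second component (-87.0, 15.4% of the variance), had the lowest median signal, and was the only early array of series 2.

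Hair genes set 3 early arrays apart. Krt25, a keratin of the inner root sheath of the hair, was at 18.74, 17.62 and 15.33 in week 10 replicates 1, 2 and 4, at 9.13 or less in the other 4 early arrays and at 10.46 or less in the late ones. Krt27, another root sheath keratin, followed the same arrays with 18.89, 17.75 and 15.41, against 8.65 or less in the other early arrays and 10.01 or less in the late ones. All 3 arrays were of scan day 1. Counts and genes given below that did not pass without these 3 arrays, a setting added with the data in view that leaves 4 early arrays, are named as such. Without them 5953 probes passed, 2936 higher and 3017 lower.

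**Figure D2:**
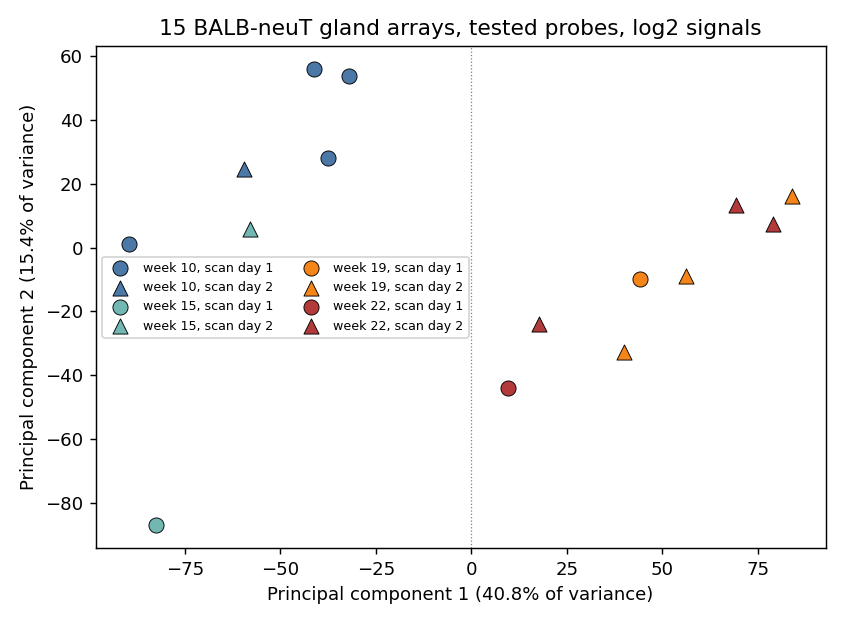
The 15 arrays are placed by the first and second principal components of the log2 signals of the tested probes, which carry 40.8% and 15.4% of the variance, and are marked by age (colour) and scan day (circle or triangle). All early arrays lie to the left and all late arrays to the right of 0 on the first component.

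Gene names were available for 311 genes on the array, of which 175 were tested. Of these, 65 passed (37.1%, against 31.9% of all tested probes), 34 higher and 31 lower in late glands, and their median change of -0.03 lay near that of all tested probes. The values of the 2 stages did not overlap for 19 named genes, where the share over all tested probes was 7.83%, 13 of them higher and 6 lower. Among the 136 named genes not tested, 57 were above background on no array, and 45 were olfactory, taste or vomeronasal receptors. Probes for Erbb2, Krt18, Adipoq and Mki67 carry no such name in the sources used here, so these markers of the oncogene, luminal cells, fat and proliferation were not analysed here.

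A pair of casein genes had the greatest increases of all named genes. Caseins are the main proteins of milk, packed into micelles by luminal cells, and whey acidic protein is the chief whey protein of rodents. All 4 milk protein genes that could be named rose (16.7% of all tested probes did), with a median log2 change of 3.68. Only 1 of 7 early arrays was above background for Csn2, and likewise for Csn1s2b and for Wap; these genes entered the test through the late arrays, so the count of 4 is a description.

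Upstream sequence was at hand for 3 of these 4 genes from RefSeq (mouse build GRCm38.p6), and the 2 caseins with the greatest increases are shown to compare the letters in front of them. Each sequence is the 250 bases before the gene's start on the gene's own strand, 5′ to 3′. Capitals mark a match to TTCNNNGAA, the motif by which STAT5, the transcription factor that prolactin activates, is known to bind DNA.
Csn2 (chr5:87699426-87699675, minus strand): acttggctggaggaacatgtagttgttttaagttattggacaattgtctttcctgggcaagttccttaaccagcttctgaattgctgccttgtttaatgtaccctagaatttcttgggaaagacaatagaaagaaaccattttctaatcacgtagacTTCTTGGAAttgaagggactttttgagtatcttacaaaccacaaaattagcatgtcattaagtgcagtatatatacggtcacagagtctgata
Csn1s2a (chr5:87774200-87774449, plus strand): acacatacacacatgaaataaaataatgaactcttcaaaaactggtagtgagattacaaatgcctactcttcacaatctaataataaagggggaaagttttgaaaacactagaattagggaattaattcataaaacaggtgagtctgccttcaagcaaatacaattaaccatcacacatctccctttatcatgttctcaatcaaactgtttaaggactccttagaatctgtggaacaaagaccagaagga
The Csn2 window held 1 match, starting at position -93 from the gene's start. The Csn1s2a window and the window before Wap (chr11:6638650-6638899, minus strand) held none. The motif reads the same on both strands, and 2306 of 32851 windows of this length (7.02%) held it. The letters TTGCNNAA, searched on both strands as the core of sites of the C/EBP factors, stood in none of the 3 windows and in 9.56% of all windows (3142). A match is a description of letters and not a measured site.

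Csn1s2a (NM_007785.1), which encodes an alpha-S2 casein, ranged from 8.76 to 12.63 with a median of 11.79 in early glands and from 13.88 to 18.03 with a median of 16.34 in late glands. The stages did not overlap, and the gene was above background on 6 of 7 early and all 8 late arrays. It rose 32.0-fold, from 11.08 ± 1.44 (SD, n = 7) to 16.09 ± 1.56 (n = 8), a log2 change of 5.00 ± 0.72 (limma adjusted p = 0.000161). Its means at weeks 10, 15, 19 and 22 were 11.07, 11.12, 15.32 and 16.85, so the step lay between weeks 15 and 19.

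Csn2 (NM_009972.1), the beta casein gene, ranged from 9.70 to 10.97 with a median of 10.48 in early glands and from 12.52 to 17.80 with a median of 14.99 in late ones. Every late value lay above every early one. The highest values were those of week 22 replicate 2 (17.80) and week 19 replicate 3 (16.99). The gene rose 25.4-fold, from 10.31 ± 0.50 (n = 7) to 14.98 ± 1.80 (n = 8), by 4.66 ± 0.65 (limma adjusted p = 0.00013). The spread between animals was wider in late glands than in early ones, where most values lay below background.

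Csn1s2b (NM_009973.1), the second alpha-S2 casein, ranged from 7.50 to 10.35 with a median of 8.50 early and from 8.30 to 14.62 with a median of 11.42 late. Here the stages overlapped, and 6 of 8 late arrays were above background. It rose 6.46-fold, by 2.69 ± 0.75 (limma adjusted p = 0.0129). This call was lost with scan day as a block (2.16, adjusted p = 0.0697) and without the 3 hair-bearing arrays (2.50, adjusted p = 0.0642). It was also lost with week 10 left out (3.25, adjusted p = 0.0974) and with week 22 left out (1.61, adjusted p = 0.141). Week 22 lay above week 19 by 2.16 ± 0.90, a difference that did not pass (limma adjusted p = 0.627).

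Wap (NM_011709.1), whey acidic protein, ranged from 8.53 to 10.27 with a median of 9.31 early and from 9.26 to 11.28 with a median of 10.59 late. It was above background on 5 of 8 late arrays, and the stages overlapped. It rose 2.37-fold, by 1.25 ± 0.35 (limma adjusted p = 0.0133), a call lost with week 10 left out (1.32, adjusted p = 0.112) and with week 22 left out (0.80, adjusted p = 0.186). The median change of the 4 genes was 3.18 after scan day was blocked and 4.03 after array series was. It was 2.59 among arrays of scan day 1, 3.75 in scan day 2, 3.56 in series 3 and 4.36 in series 4.

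Stat5a and Stat5b, which encode the STAT5 proteins, did not pass over all 15 arrays. Stat5a differed by -0.38 ± 0.18 (limma adjusted p = 0.121), from 15.01 ± 0.48 early (n = 7) to 14.63 ± 0.19 late (n = 8). It passed as lower once array series was blocked (-0.47, adjusted p = 0.035) and with week 15 left out (-0.55, adjusted p = 0.0305), and was 0.03 with week 10 left out. Stat5b differed by -0.15 ± 0.12 (limma adjusted p = 0.37). Both were looked up after the values were seen.

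**Figure D3:**
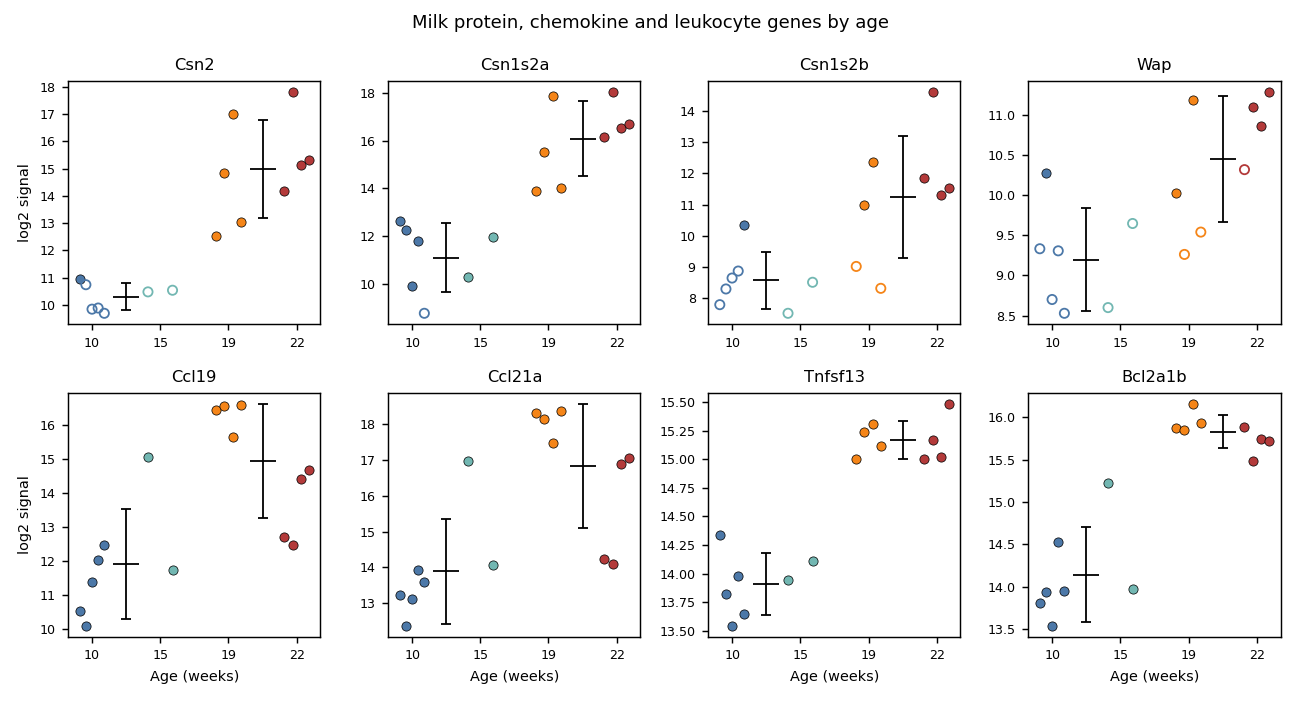
Log2 signals of 8 genes that passed as higher in late glands are plotted against age in weeks, 1 point per array, filled where the array was above background and open where it was not, with the mean ± SD of each stage as a bar. Late values of Csn2, Csn1s2a, Tnfsf13 and Bcl2a1b lie above all early ones, while Ccl19 and Ccl21a peak at week 19 and are also high in 1 of 2 arrays at week 15.

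Chemokines of lymphoid tissue made up the next group of increases. Ccl19 and Ccl21 are made by stromal cells of lymph nodes, Ccl21 also by lymphatic vessels, and both draw T cells and dendritic cells through the receptor Ccr7. All 3 chemokine genes with a name rose (16.7% of all tested probes did), with a median log2 change of 2.93, and all 3 were above background on every array. Ccl21a and Ccl21b are near-identical copies and can share signal, so they do not count as separate evidence.

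Ccl19 (NM_011888.2) ranged from 10.09 to 15.04 with a median of 11.72 in early glands and from 12.45 to 16.57 with a median of 15.15 in late glands. The stages overlapped because week 15 replicate 1 held the early maximum. The gene rose 8.17-fold, from 11.90 ± 1.62 (n = 7) to 14.93 ± 1.67 (n = 8), by 3.03 ± 0.78 (limma adjusted p = 0.00878). Its means by age were 11.30, 13.38, 16.30 and 13.56 at weeks 10, 15, 19 and 22.

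Ccl21a (NM_011124.3) ranged from 12.38 to 16.96 with a median of 13.58 early and from 14.10 to 18.38 with a median of 17.27 late. The 4 arrays at week 19 held the highest values, from 17.48 upward, while week 22 was split between 14.25 and 14.10 in replicates 1 and 2 and 16.89 and 17.06 in replicates 3 and 4. The gene rose 7.63-fold, by 2.93 ± 0.77 (limma adjusted p = 0.00944). Ccl21b (NM_011335.1) rose 6.79-fold, by 2.76 ± 0.77 (limma adjusted p = 0.0128), and its second probe gave 2.99 ± 0.74 (adjusted p = 0.00683). It was the only one of the 34 named genes that rose whose late means were not both above both early means, since week 22 (16.04) lay just below week 15 (16.08).

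The differences of week 22 from week 19 did not pass for these genes, with -2.74 ± 0.73 for Ccl19 (limma adjusted p = 0.395) and -2.50 ± 0.73 for Ccl21a (adjusted p = 0.434). The median change of the 3 chemokines between stages was 2.78 after blocking scan day and 2.68 after blocking array series, and between 2.35 and 3.94 within the 2 scan days and series 3 and 4. With both blocks together it was 1.63, and all 3 calls were lost (adjusted p = 0.275 for Ccl19, 0.272 for Ccl21a and 0.299 for Ccl21b, limma). It was 1.31 with week 10 left out and 1.66 with week 19 left out, again with all 3 calls lost, and 4.18 with week 22 left out. Without the 3 hair-bearing arrays all 3 calls were lost, with changes of 2.27 for Ccl19 (adjusted p = 0.075), 2.39 for Ccl21a (adjusted p = 0.0709) and 2.30 for Ccl21b (adjusted p = 0.0848). That setting leaves 4 early arrays, of which week 15 replicate 1 is one. Without week 15 replicate 1 the changes of Ccl21a and Ccl21b were 3.44 and 3.26 (adjusted p = 0.002 and 0.00291). Whether the amount of lymph node in each whole mount differed was not tested, since no marker of lymph node cells in the lists could be named other than these chemokines and the genes that follow.

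Genes of the leukocyte list rose by less and with a narrower spread. All 3 genes of that list with a name rose (16.7% of all tested probes did), with a median log2 change of 1.26. The list is not exhaustive: Tlr7, Ear1 and Grap, named genes outside it, were tested and did not pass. All 3 genes of the list were above background on every array. In all 3 the stages did not overlap, as was so for 7.83% of all tested probes. Tnfsf13 (NM_023517.1), which encodes the B cell and plasma cell ligand APRIL, ranged from 13.54 to 14.34 with a median of 13.94 early and from 15.00 to 15.48 with a median of 15.14 late. It rose 2.39-fold, from 13.91 ± 0.27 (n = 7) to 15.17 ± 0.17 (n = 8), by 1.26 ± 0.13 (limma adjusted p = 1.06e-05, the smallest of all named genes). The change was 1.08 among arrays of scan day 1, 1.34 in scan day 2, 1.36 in series 3 and 1.32 in series 4.

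Bcl2a1b (NM_007534.1), an anti-apoptotic Bcl2 relative of leukocytes that has near-identical copies in the mouse, ranged from 13.54 to 15.22 with a median of 13.95 early and from 15.49 to 16.15 with a median of 15.86 late. It rose 3.22-fold, by 1.69 ± 0.21 (limma adjusted p = 4.54e-05). Its highest early value was that of week 15 replicate 1, the same array that was high in the chemokines. Lst1 (NM_010734.1), a transcript of myeloid and lymphoid cells, ranged from 12.38 to 13.20 with a median of 12.78 early and from 13.75 to 14.48 with a median of 13.95 late. It rose 2.24-fold, by 1.16 ± 0.15 (limma adjusted p = 5.8e-05). The list's median was between 1.08 and 1.46 within scan days and within series 3 and 4, and all 3 genes passed without the hair-bearing arrays.

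Of 4 class I and interferon-inducible genes, 3 rose (16.7% of all tested probes did) and 1 did not pass, with a median of 0.94. Csprs, a gene with repeated relatives in the mouse genome, ranged from 9.92 to 11.92 with a median of 10.93 early and from 12.25 to 13.71 with a median of 12.79 late. It rose 3.72-fold, by 1.90 ± 0.27 (limma adjusted p = 0.000162), and its stages did not overlap. H2-Q8, a non-classical class I gene of the major histocompatibility complex with close copies, ranged from 10.78 to 12.60 with a median of 12.48 early and from 13.07 to 14.42 with a median of 13.53 late. It rose 2.63-fold, by 1.39 ± 0.29 (limma adjusted p = 0.00217), again with no overlap. Another gene of this region, H2-Q7, rose by 0.48 ± 0.15 (limma adjusted p = 0.0226), which did not pass once scan day was blocked (adjusted p = 0.091) or without the hair-bearing arrays (0.42, adjusted p = 0.0923). Ifi202b, a DNA sensor of the interferon response, differed by 0.27 ± 0.21 (limma adjusted p = 0.329) and did not pass.

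Of the 3 luminal epithelial and secreted genes tested, 2 rose (Tmem139 and Krt23, where 16.7% of all tested probes did) and 1 did not pass, with a median of 1.55. Tmem139, a membrane protein gene, ranged from 9.60 to 11.88 with a median of 11.45 early and from 12.48 to 13.31 with a median of 12.92 late. It rose 3.93-fold, by 1.97 ± 0.31 (limma adjusted p = 0.000303), and the stages did not overlap. Outside the lists, Dcaf12l1 ranged from 8.33 to 10.63 early and from 10.02 to 11.96 late, with medians of 9.49 and 11.45, and rose 3.54-fold (1.83 ± 0.35, limma adjusted p = 0.00142). It was above background on 4 early and 7 late arrays, and the stages overlapped through week 19 replicate 1 alone among late arrays.

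Krt23, an epithelial keratin of the acidic type, ranged from 12.43 to 15.31 with a median of 14.21 early and from 15.16 to 16.07 with a median of 15.39 late. It rose 2.94-fold, by 1.55 ± 0.38 (limma adjusted p = 0.00608). Early glands were spread by 1.10 (SD, n = 7) and late glands by 0.30 (n = 8), and week 15 had the lowest mean (13.05, against 14.28 at week 10). Nat8f2, of a family of acetyltransferases, was above background on no early array and on 7 late ones. It rose 2.94-fold, by 1.55 ± 0.22 (limma adjusted p = 0.000156). Nat8f2 entered the test through the late arrays, and its early level lay below background, so the fold is imprecise. Its measured means were 9.04 ± 0.39 (n = 7) and 10.60 ± 0.48 (n = 8).

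Decreases in late glands were smaller. The greatest among named genes was that of Aoc3. Aoc3 (NM_009675.1), an amine oxidase abundant on the surface of adipocytes and smooth muscle of vessels, ranged from 19.30 to 20.45 with a median of 20.13 early and from 17.12 to 19.14 with a median of 18.45 late. All late values lay below all early ones. It fell by 1.63 ± 0.31 on the log2 scale, 3.10-fold, from 19.91 ± 0.46 (n = 7) to 18.28 ± 0.75 (n = 8; limma adjusted p = 0.00124). Means at weeks 10, 15, 19 and 22 were 19.78, 20.24, 18.24 and 18.32. Within batches it changed by -0.77 and -2.15 in scan days 1 and 2, and by -1.26 and -2.38 in series 3 and 4.

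Mup1, a major urinary protein that carries small lipophilic molecules and has many near-identical relatives, ranged from 20.11 to 20.90 with a median of 20.67 early and from 19.33 to 20.15 with a median of 19.61 late. It fell by 0.93 ± 0.15 (limma adjusted p = 0.000511), and week 10 replicate 5 was the only early array below the late maximum. Of the 4 fat and lipid genes tested, 2 fell (Aoc3 and Mup1) and 2 rose, for a median of -0.29, where 15.3% of all tested probes fell and 16.7% rose. Cebpb, a transcription factor of fat and mammary epithelial differentiation, rose 1.50-fold from 17.99 ± 0.24 (n = 7) to 18.58 ± 0.26 (n = 8; 0.59 ± 0.14, limma adjusted p = 0.00545). Its second probe gave a difference that did not pass (0.58 ± 0.36, adjusted p = 0.237), and the call was lost with week 10 or week 19 left out (adjusted p = 0.112 and 0.0777) and with both batch blocks (adjusted p = 0.106). Plin3, a protein of lipid droplets in many cell types, rose by 0.35 ± 0.12 (limma adjusted p = 0.04), which did not pass once scan day was blocked (adjusted p = 0.122). Without the hair-bearing arrays the change was 0.16 (adjusted p = 0.32), and the call was also lost in 10 of 15 omissions of 1 array.

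Dhrs7b, a reductase of ether lipid synthesis, and Lgals1, which encodes the sugar-binding protein galectin 1 of stromal and other cells, also fell with no overlap of the stages. Dhrs7b fell by 0.73 ± 0.13, from 17.20 ± 0.27 (n = 7) to 16.47 ± 0.17 (n = 8; limma adjusted p = 0.000713). Lgals1 ranged from 18.99 to 19.93 with a median of 19.26 early and from 18.03 to 18.96 with a median of 18.52 late. It fell by 0.85 ± 0.19 (limma adjusted p = 0.00362). Mapk1ip1, named for its interaction with a MAP kinase, fell by 0.64 ± 0.14 (limma adjusted p = 0.00326), also with no overlap.

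**Figure D4:**
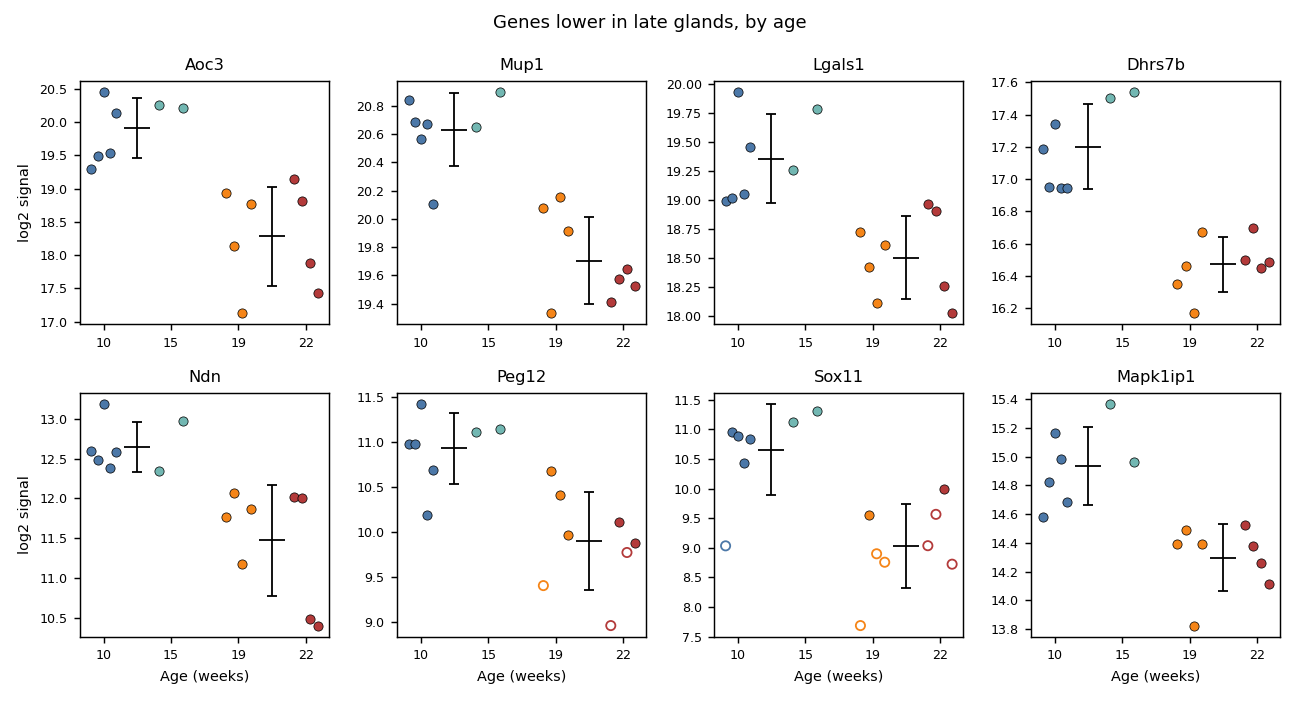
Log2 signals of 8 genes that passed as lower in late glands are plotted against age in weeks, 1 point per array, filled where the array was above background and open where it was not, with the mean ± SD of each stage as a bar. Aoc3, Lgals1, Dhrs7b, Ndn and Mapk1ip1 show no overlap of the stages, and the 4 values of Ndn at week 22 form a high and a low pair.

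Imprinted genes, which are expressed from 1 parental copy, included 2 that fell and 3 that did not pass of 5 tested, with a median of -0.35. The share that passed lies near the 31.9% of all tested probes, so the count is no result about imprinted genes. Ndn (NM_010882.2), which encodes necdin, a brake on growth in neurons and in precursors of fat cells, ranged from 12.35 to 13.18 with a median of 12.59 early and from 10.40 to 12.07 with a median of 11.81 late. It fell by 1.18 ± 0.27 (limma adjusted p = 0.00454) with no overlap of the stages. The change was -0.50 within series 3 and -2.13 within series 4. Peg12, a paternally expressed gene, ranged from 10.19 to 11.41 with a median of 10.97 early and from 8.96 to 10.68 with a median of 9.92 late. It fell by 1.03 ± 0.24 (limma adjusted p = 0.0046) and was above background on 5 of 8 late arrays. Gnas, which encodes a G protein subunit, differed by -0.35 (adjusted p = 0.201), Mkrn3 by -0.23 (adjusted p = 0.43) and Ube3a, a ubiquitin ligase, by -0.14 (adjusted p = 0.461, limma), and none of the 3 passed.

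Both tested genes of the neural list fell (15.3% of all tested probes did), with a median of -1.46. Sox11, a transcription factor of developing neurons, ranged from 9.03 to 11.32 with a median of 10.90 early and from 7.69 to 10.00 with a median of 8.97 late. It fell by 1.63 ± 0.36 (limma adjusted p = 0.00325), and with 6 early and 2 late arrays above background the size of the fall is imprecise. Sox11 entered the test through the early arrays, so the count for this list is a description. Pcdha3, a protocadherin of neuronal surfaces, ranged from 11.82 to 13.10 with a median of 12.68 early and from 10.15 to 12.73 with a median of 11.35 late. It fell by 1.30 ± 0.36 (limma adjusted p = 0.0124), a call lost without the hair-bearing arrays (-1.10, adjusted p = 0.0816). The call was also lost with week 10 left out (-1.37, adjusted p = 0.138) and with week 19 left out (-0.65, adjusted p = 0.18). With week 22 left out the change was -1.95 (adjusted p = 0.00163). Week 22 lay above week 19 by 1.31 ± 0.38, a difference that did not pass (limma adjusted p = 0.434).

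The remaining genes of the 12 greatest decreases were measured as follows. Mab21l1, a gene of eye development, was above background on 5 early and 3 late arrays, and so entered the test through the early arrays. It fell by 1.48 ± 0.45 (limma adjusted p = 0.0217), a call lost without the hair-bearing arrays (adjusted p = 0.054). The call was also lost with week 10 left out (-1.04, adjusted p = 0.32) and with week 19 left out (-1.44, adjusted p = 0.141). With each age weighted equally it did not pass either (-1.35, adjusted p = 0.0541). Sowahc ranged from 15.02 to 16.10 early and from 13.66 to 15.34 late and fell by 1.08 ± 0.24 (limma adjusted p = 0.00387). The transcript 2700081O15Rik ranged from 14.10 to 14.76 early and from 13.05 to 14.01 late, with no overlap, and fell by 0.99 ± 0.17 (limma adjusted p = 0.0006). These 2 passed with each batch block and without the hair-bearing arrays.

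Paqr9, a member of the progestin and adipoQ receptor family, ranged from 12.55 to 14.45 early and from 10.86 to 13.59 late and fell by 1.22 ± 0.40 (limma adjusted p = 0.0302). Its call was lost with week 15 left out (-0.85, adjusted p = 0.141) and with scan day as a block (adjusted p = 0.0501). The call was also lost with week 19 left out (-0.86, adjusted p = 0.218) and in 6 of 15 omissions of 1 array. Sult5a1, a sulfotransferase, ranged from 13.23 to 14.44 early and from 12.49 to 13.89 late and fell by 0.76 ± 0.24 (limma adjusted p = 0.0222). It did not pass once scan day was blocked (-0.56, adjusted p = 0.118) or without the hair-bearing arrays (-0.65, adjusted p = 0.112).

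Several lists held few named genes or moved little. None of the 4 tested hair and skin genes passed (31.9% of all tested probes did), with a median of -1.16. Krtap1-5, a hair keratin-associated protein, was above background on no late array and differed by -3.20 ± 1.32 (limma adjusted p = 0.0766), and Krtap3-3 differed by -0.84 ± 0.35 (adjusted p = 0.0826). Without the 3 hair-bearing arrays the list's median was 0.04. Lgals7, a galectin of stratified and basal epithelium, differed by 0.18 ± 0.12 (limma adjusted p = 0.27). Hba-a1, a haemoglobin chain of red blood cells, differed by -0.62 ± 0.24 (limma adjusted p = 0.0592). It passed as lower with scan day as a block (-0.91, adjusted p = 0.013), with array series (-0.71, adjusted p = 0.0382) and with both (-1.23, adjusted p = 0.00546). With week 15 left out it did not pass (-0.44, adjusted p = 0.223). Jun, an immediate early gene listed together with Cebpb, differed by 0.32 ± 0.24 (limma adjusted p = 0.321). So 1 of 2 in that list rose (median 0.45), where 16.7% of all tested probes did. Wfdc2, a secreted protein of glandular epithelium, differed by -0.37 ± 0.48 (limma adjusted p = 0.591). None of the 6 olfactory, taste and vomeronasal receptor genes tested passed (31.9% of all tested probes did), with a median of -0.15.

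Most probes have no gene name here, and the smallest p-values lay among them. The probe for mCG16965.2 rose from 11.08 ± 0.37 (n = 7) to 14.44 ± 0.35 (n = 8), by 3.37 ± 0.19 (limma adjusted p = 1.33e-07), and that for mCG123155.1 rose by 2.29 ± 0.13 (limma adjusted p = 1.33e-07). The probe for mCG19440 fell from 16.15 ± 0.24 (n = 7) to 14.80 ± 0.26 (n = 8), by 1.35 ± 0.14 (limma adjusted p = 1.24e-05), and that for mCG23171.1 by 1.88 ± 0.21 (adjusted p = 1.92e-05). Probes that appeared or vanished with stage were few. Of those that passed, 29 were above background on all 8 late arrays and on no early array, and 1 was above background on all 7 early arrays and on no late array.

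Few probes passed between the ages within a stage. In a fit with the 4 ages as separate levels over the same 17506 probes, 3 probes passed at week 15 against week 10, all of them lower at week 15 (2007 at an unadjusted p under 0.05), and 0 passed at week 22 against week 19 (1329 at an unadjusted p under 0.05, limma). No named gene passed in either. These contrasts hold 2 against 5 and 4 against 4 arrays, fewer than the 8 against 7 of the pooled one, so the counts cannot be set against each other as sizes of effect. Of the 2919 probes higher in late glands, 2878 had both late age means above both early ones, and of the 2674 lower, 2647 had both below. The week 19 mean lay above the week 22 mean for 1213 of the probes that rose.

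Batch and stage overlap in part, and the comparison was repeated with each batch held fixed. With scan day as a block 4015 probes passed, of which 3802 were among the 5593 (68.0% of them), and with array series as a block 6421 passed. Of the 24 named genes with the greatest changes, 21 passed with scan day as a block, the exceptions being Csn1s2b, Paqr9 and Sult5a1, and all 24 passed with array series. With both blocks 17 of the 24 passed, and the 7 lost were the 3 chemokines, Csn1s2b, Pcdha3, Mab21l1 and Sult5a1. Leaving out a whole age left 16 of the 24 calls without week 10, 23 without week 15, 17 without week 19 and 21 without week 22. Ndn was lost without week 10, and Peg12 and Krt23 without week 22. Within scan day 1, which holds 2 late arrays, 13 probes passed, and within scan day 2 3327 did. Within series 3 and 4 the counts were 541 and 4064. The sign was the same in all 4 of these subsets for each of the 24 genes. For the 10 whose stages did not overlap, the lack of overlap fixes the sign. The rest were chosen as the greatest changes over the same arrays, which favours the same sign, so the agreement is no separate evidence. The sizes differed, with Csn1s2a at 3.63 and 6.09 in scan days 1 and 2 and Csn2 at 2.95 and 5.40.

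**Figure D5:**
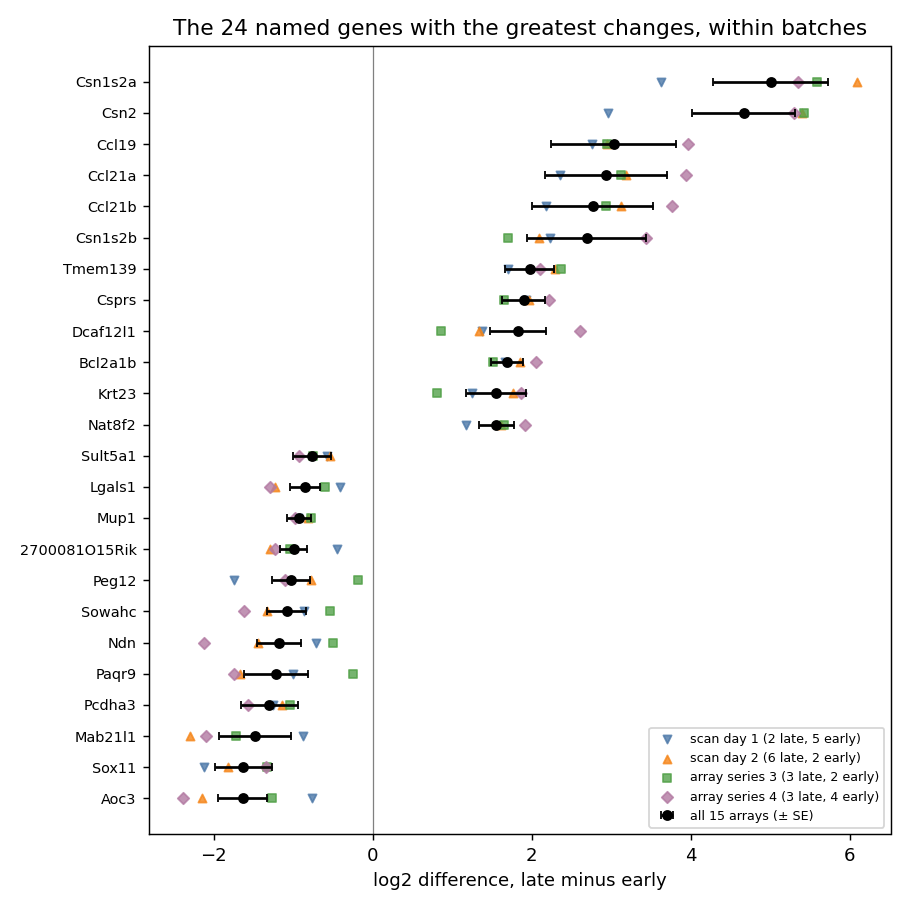
Log2 differences of late minus early glands are shown for the 12 greatest increases and 12 greatest decreases among named genes, over all 15 arrays with the SE as a bar and within each scan day and within array series 3 and 4 as coloured marks. All marks of a gene lie on the same side of 0, and the marks of Csn1s2a and Csn2 are spread most widely around the pooled value.

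Decreases depended more on the scaling than increases. With each array centred on its median instead of quantile normalized, the median change of all tested probes was 0.07, and 4771 probes passed, 3078 higher and 1693 lower, so that 64.5% of the calls were higher against 52.2% after quantile normalization. Under that scaling 32 of the 34 named genes that rose and 15 of the 31 that fell still passed. The 16 lost included Paqr9 and Sult5a1 from the 12 greatest decreases (adjusted p = 0.0584 and 0.0737, limma). All 65 kept their direction.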

How the data were processed

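Total RNA of whole-mount mammary glands was labelled with digoxigenin and read by chemiluminescence on single-colour AB1700 mouse arrays, per the labels' protocols. The deposited array files hold, per the file headers, a linear signal intensity for every probe, its signal-to-noise ratio (a score) and a flag for spot quality (another number). No treatment of background before that was found in the labels or headers. The authors' deposited value table holds log2 values whose scale of normalization was read from the values: each column has a median of 10.03, each keeps the order of the array's own signals (Spearman 1), and its offset is unknown. It served as an alternative.

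Signals of 33012 probes, without 303 control rows, were taken to log2 and quantile normalized over 15 arrays. A probe was above background where the signal-to-noise score reached 3 and the flag lay under 5000, and was kept when it was so on at least 50% of the arrays of a stage. Differences were tested two-sided with limma 3.58.1 in R 4.3.3 (lmFit, eBayes) in a fit with stage as 2 levels, adjusted by Benjamini-Hochberg over all kept probes at a threshold of 0.05; the code was tested on simulated data. The SD bars and n are over animals, 1 per array per the series design. Replicate numbers follow the order of deposit.

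Accessions were matched to RefSeq genes of GRCm38.p6, giving names to 317 probes (311 genes), with 32695 left unnamed. A gene with several probes is represented by the brightest. Named were the 12 greatest increases and decreases, up to 4 called members of each of 16 lists or else its 2 with the smallest p, and 2 unnamed probes each way; Stat5a, Stat5b, Dhrs7b, Mapk1ip1, further list members and the genes of the closing observations were named after their values were seen. Proliferation, muscle, and endothelial and stromal lists had no named gene. The stages, lists and genes were chosen with earlier results of these data known. Scan day comes from the file headers and array series from the serial numbers in the titles. Alternatives were age weighting, ages left out, scaling, offset, filters, the authors' table, batch blocks, array weights, age as a random block and each array left out.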

Additional observations from a re-analysis of the deposited data

Results flagged for a closer look

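Of 130 stage groups examined for the 65 named genes that passed, 9 held 1 array far from the rest by Dixon's test at its 95% critical value, where chance gives about 1 in 20. Week 15 replicate 1 was that array for 3 genes in early glands. It stood at 16.96 for Ccl21a (next 14.06), at 17.56 for Ccl21b (next 14.68) and at 10.78, the low end, for H2-Q8 (next 12.20). Without it the late minus early differences were 3.44, 3.26 and 1.16 (limma adjusted p = 0.002, 0.00291 and 0.00142), all still past the threshold. Ccl19 was also highest in this array among early glands but did not reach the critical value.

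Week 10 arrays held 3 such values. Mup1 was at 20.11 in replicate 5 (next 20.56), Sox11 at 9.03 in replicate 1 (next 10.43) and Mapk7, which encodes the kinase ERK5, at 13.32 in replicate 4 (next 13.47). Without these arrays the differences were -1.01, -1.90 and -0.40 (limma adjusted p = 0.000306, 0.000356 and 0.0119). The other 3 were Sult5a1 at 13.23 in week 15 replicate 2 (next 13.95), Dcaf12l1 at 10.02 in week 19 replicate 1 (next 11.09) and Nars2, a mitochondrial tRNA ligase gene, at 11.94 in week 22 replicate 2 (next 11.16). Without them the differences were -0.90, 2.01 and -0.81 (limma adjusted p = 0.00867, 0.000504 and 0.00567).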

How the results depend on the processing

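All 65 named genes that passed kept their direction under every alternative that gave them a value. Of the 65, 49 passed with scan day as a block, 61 with array series, 40 with both blocks (added after seeing the data), 59 with age as a random block, and 55 in all 15 omissions of 1 array. The 10 that lost a call were led by Akap7, Ldhal6b and Tbc1d16, lost in 11 omissions each, and Plin3 and Rtl8c, in 10 each. Ldhal6b, Tbc1d16 and Rtl8c also did not pass without the hair-bearing arrays (limma adjusted p = 0.117, 0.166 and 0.0542). The count of 5593 probes fell to 3648 without week 10, 2766 without week 19 and 3722 without week 22, and to 13, 3327 and 541 within scan day 1, scan day 2 and series 3, all of which hold fewer arrays. It ranged from 4748 (without week 19 replicate 3) to 5904 (without week 10 replicate 1) over single omissions, was 5587 with the authors' table and 6695 with array weights. Over the named genes and alternatives, 2075 values kept direction and side of the threshold, 489 no longer passed and 16 newly passed. Reversed in sign were 3 differences that did not pass over all 15 arrays, Stat5a (0.0327) and Lgals7 (-0.0045) without week 10 and Jun (-0.16) within series 3. No paired analysis was possible because the replicate numbers only reflect deposit order. Where a probe lies below background its level is a floor, so folds of genes such as Csn2, Csn1s2b, Wap, Nat8f2, Sox11, Mab21l1 and Dcaf12l1 are imprecise.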

Other observations

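Some named genes outside the lists also changed with stage. Tceal9, of a family related to transcription elongation factors, rose 2.72-fold (1.44 ± 0.22, limma adjusted p = 0.000229), and Chrnb1, the beta subunit of the acetylcholine receptor of muscle, rose 2.51-fold (1.33 ± 0.21, adjusted p = 0.000336), both with no overlap of the stages. Of 3 tested genes of the TRIM family 2 rose (16.7% of all tested probes did), a family looked up after the values were seen, so the count is a description. Trim59 rose by 1.43 ± 0.33 (limma adjusted p = 0.00476) and the interferon-inducible Trim34a by 0.81 ± 0.17 (adjusted p = 0.0026), while Trim41 differed by 0.12 ± 0.12 (adjusted p = 0.486). Tnk1, a non-receptor tyrosine kinase, rose by 1.17 ± 0.27 (limma adjusted p = 0.0043), while Mapk7 fell by 0.37 ± 0.10 (adjusted p = 0.0116), a call lost with each array centred on its median (adjusted p = 0.135). Ramp3, an accessory protein of adrenomedullin receptors, rose by 1.01 ± 0.30 (limma adjusted p = 0.019). It did not pass once scan day was blocked (adjusted p = 0.0881), with both batch blocks (adjusted p = 0.107) or with week 15 left out (0.70, adjusted p = 0.091). Notum, an enzyme that inactivates Wnt ligands, fell by 0.72 ± 0.22 (limma adjusted p = 0.0222), which did not pass with scan day or array series blocked (adjusted p = 0.0524 and 0.052). The histone genes H2bc18 and H2bc13, which have close copies, fell by 0.68 ± 0.20 and 0.51 ± 0.16 (limma adjusted p = 0.0184 and 0.0235). Neither passed with each array centred on its median (adjusted p = 0.065 and 0.105) or with week 15 left out (adjusted p = 0.071 and 0.0896), and H2bc18 did not with scan day blocked (-0.57, adjusted p = 0.0838).

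Calls were somewhat more frequent among well-detected probes. Of 11644 probes above background on all 15 arrays 3966 passed (34.1%), 1833 higher and 2133 lower, and of 5862 below background on at least 1 array 1627 passed (27.8%), 1086 higher and 541 lower. Among the probes that rose, 165 were above background on no early array, and among those that fell 30 were above background on no late array.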
